A study of Mus musculus with 3 samples.

Results

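NKG2, NKR-P1 and NKp46 receptors are surface proteins with which natural killer (NK) cells and some T cells read the cells they meet. The set described here holds 8 of the 33696 genes in the count matrices, chosen by name: Ncr1 (ENSMUSG00000062524), Klrb1c (ENSMUSG00000030325), Klrb1b (ENSMUSG00000079298), Klrd1 (ENSMUSG00000030165), Klrc1 (ENSMUSG00000030167), Klrk1 (ENSMUSG00000030149), Klre1 (ENSMUSG00000050241) and the adaptor gene Tyrobp (ENSMUSG00000030579). They were measured in Cd3-negative NK cells, Cd3-positive NK-receptor cells, CD8 cells and CD4 cells of 3 single-cell RNA sequencing libraries. All mice were wild-type B6129SF1/J females, the F1 offspring of C57BL/6 and 129 parents, bought at 5 to 6 weeks of age and carrying subcutaneous KP1 tumors grown from 500000 cells of an Rb/p53 mutant small-cell lung cancer line. One library came from mice given mono-IL-10, a monomeric form of human IL-10. Mice of another received IL-10/2-Trikine, the same cytokine linked to a module that also recruits a receptor chain of IL-2. Both were injected into the peritoneum at 3 μg on alternate days, starting on day 7 and ending on day 19. The combination library added 200 μg of an anti-PD-1 antibody 4 times, on day 7, day 11, day 15 and day 19. The protocol text can also be read as giving the antibody to every group, but the sample labels name it for the combination alone. Live CD45+ cells, which are leukocytes in general although the labels call them T cells, were sorted on day 19. Each group is 1 library and the number of mice in it is not stated, so no test between groups was possible and intervals below cover counting error only. Differences between treatments and between mice or library preparations therefore cannot be told apart.

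The receptors work in small modules. Klrd1 encodes CD94, which pairs with NKG2A, the product of Klrc1, to form an inhibitory receptor for the nonclassical MHC molecule Qa-1. Klrk1 encodes NKG2D, an activating receptor for stress-induced ligands that signals through the adaptors DAP10, the product of Hcst, and DAP12, the product of Tyrobp. Klrb1c encodes NK1.1, an activating NKR-P1 receptor and the classical surface marker of NK cells in C57BL/6 mice, whereas Klrb1b encodes an inhibitory NKR-P1 receptor for Clr-b, the product of Clec2d. Ncr1 encodes NKp46, an activating receptor of NK cells and some innate lymphoid cells, and Klre1 encodes a partner chain of the Klri receptors. NKG2A, CD94 and NKG2D are also known on activated CD8 T cells. Tyrobp carries the signal of many receptors in NK cells and in myeloid cells.

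The classes of cells were set without any of the 8 genes. NK-receptor sub-clusters were defined by at least 5 of 14 other NK genes, such as Klra1, Klra8, Fcer1g and Prf1, and then divided by Cd3. The Cd3-negative NK class held 664 cells under mono-IL-10, 1286 under IL-10/2-Trikine and 1830 under the combination. For the Cd3-positive NK-receptor class the counts were 416, 3002 and 1200 cells. Cells of the NK sub-clusters with few Cd3 transcripts that had a Cd3 UMI of their own were left out, 261 of 925, 701 of 1987 and 1129 of 2959 cells. The CD8 class had 4315, 4473 and 4411 cells and the CD4 class 1734, 2661 and 3975. In all, 22235, 22707 and 26967 cells passed the filters, from 158570946, 197176873 and 175794959 unique molecular identifiers (UMIs, each standing for 1 captured RNA molecule). Between 137 and 180 barcodes were shared by each pair of libraries, at most 0.793% of a library. Cd3e, Klra8 and Trdc differed between the NK-receptor classes. Cd3e stood at 0 CPM (counts per 1000000 UMIs of the class) in Cd3-negative NK cells, by construction, while Klra8, an NK receptor gene, reached 313 to 526 CPM there and 7.89 to 9.34 CPM in Cd3-positive NK-receptor cells. Not every gene of this family did so. Klra1, Klra7 and Klra9 were among the NK markers of both Cd3-positive sub-clusters, and Klra1, Klra5 and Klra6 were among the leading genes of both. Trdc, the constant region of the delta chain, was found at 169 to 235 CPM in the Cd3-positive class, against 53.3 to 59.0 CPM in the Cd3-negative class. Cycling cells took different shares of the classes. A UMI of the cycling gene Mki67 was seen in 18.03%, 53.1% and 33.25% of Cd3-positive NK-receptor cells, in 24.7%, 44.0% and 25.5% of CD8 cells, in 24.6%, 50.2% and 39.7% of CD4 cells and in 10.8%, 17.3% and 10.4% of Cd3-negative NK cells, each time in the order mono-IL-10, IL-10/2-Trikine and combination. That order is kept for every set of 3 values below.

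A promoter window, 250 bases before to 50 after the start site in RefSeq (GRCm38.p6), was found for 6 of the 8 genes, in 9 windows because some genes have more than 1 start. Klrb1c, Klrb1b, Klrc1, Klrk1 and Klre1 lie on chromosome 6 and Ncr1 on chromosome 7. The 5 windows below are given because the first 3 genes were at background in CD8 and CD4 cells and the last 2 were above macrophage-like cells there, so the groups described below can be read beside their promoters. They stand at chr7:4337465-4337764 on the plus strand for Ncr1, and on the minus strand at chr6:128788592-128788891 for Klrb1c, chr6:128826259-128826558 for Klrb1b, chr6:129678924-129679223 for Klrc1 and chr6:129623815-129624114 for Klrk1. Capitals mark the RUNX motif TGTGGT or, on the other strand, ACCACA.
Ncr1: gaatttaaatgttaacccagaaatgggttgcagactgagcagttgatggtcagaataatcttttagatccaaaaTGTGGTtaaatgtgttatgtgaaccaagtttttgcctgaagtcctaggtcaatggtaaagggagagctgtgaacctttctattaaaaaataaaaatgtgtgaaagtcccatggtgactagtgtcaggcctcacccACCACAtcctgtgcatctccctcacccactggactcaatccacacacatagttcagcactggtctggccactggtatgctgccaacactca
Klrb1c: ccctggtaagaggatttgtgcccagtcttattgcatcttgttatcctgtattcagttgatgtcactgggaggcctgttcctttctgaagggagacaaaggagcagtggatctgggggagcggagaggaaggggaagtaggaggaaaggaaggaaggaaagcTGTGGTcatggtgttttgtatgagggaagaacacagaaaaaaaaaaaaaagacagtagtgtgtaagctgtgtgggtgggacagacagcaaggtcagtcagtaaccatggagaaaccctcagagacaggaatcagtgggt
Klrb1b: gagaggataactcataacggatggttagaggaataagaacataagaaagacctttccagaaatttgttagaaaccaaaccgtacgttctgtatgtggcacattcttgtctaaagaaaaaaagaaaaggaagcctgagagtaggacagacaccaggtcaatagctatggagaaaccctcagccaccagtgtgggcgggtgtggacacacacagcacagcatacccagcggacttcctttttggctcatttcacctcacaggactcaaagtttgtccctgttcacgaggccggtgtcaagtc
Klrc1: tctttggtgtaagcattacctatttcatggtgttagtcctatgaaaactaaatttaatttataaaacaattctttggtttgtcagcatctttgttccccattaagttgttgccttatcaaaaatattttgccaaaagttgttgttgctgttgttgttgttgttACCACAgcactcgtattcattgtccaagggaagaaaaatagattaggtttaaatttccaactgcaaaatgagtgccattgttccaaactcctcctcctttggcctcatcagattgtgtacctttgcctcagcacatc
Klrk1: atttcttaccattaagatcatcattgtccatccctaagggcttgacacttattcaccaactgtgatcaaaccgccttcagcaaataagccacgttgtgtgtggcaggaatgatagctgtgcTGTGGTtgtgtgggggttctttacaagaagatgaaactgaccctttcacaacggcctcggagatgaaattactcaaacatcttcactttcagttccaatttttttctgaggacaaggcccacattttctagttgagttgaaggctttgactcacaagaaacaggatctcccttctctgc
The RUNX letters occurred in 6 of the 9 windows, against 16.8% of 32851 promoter windows of the genome. They stood at −176 and −41 from the start of Ncr1, at −89 in Klrb1c, at −87 in Klrc1, at −129 in Klrk1 and at −229 in the first of the 2 windows of Klre1. Both windows of Klrb1b and the other window of Klre1 lacked them. An ETS motif, AGGAAG or CTTCCT, was present in 4 of the 9 windows and in 35.4% of all windows. A T-box motif, GGTGTGA or TCACACC, was in none of the 9 and in 3.98% of all. These are matches of letters in windows that partly overlap for the same gene, and the letters occurred in genes of both groups.

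Free RNA set a floor under the low levels and is given first. Empty droplets show the make-up of free RNA, while the part of a cell's UMIs that is free RNA was not measured. In empty droplets, barcodes with 1 to 50 UMIs, Klrd1 stood at 182, 425 and 335 CPM, Klrk1 at 114, 284 and 247 and Klre1 at 59.3, 193 and 141, each highest in the IL-10/2-Trikine library. Macrophage-like cells, which are not known for these genes, held 86.7, 170 and 80.3 CPM of Klrd1 and 56.2, 108 and 66.1 CPM of Klrk1. For shares of cells with a UMI, each cell was thinned to 1000 UMIs, which left out 25, 207 and 328 Cd3-negative NK cells, 9, 14 and 18 Cd3-positive NK-receptor cells, 31, 30 and 83 CD8 cells and 27, 5 and 42 CD4 cells. Neutrophil-like cells served as background. Klrd1 was detected in 0.99%, 5.33% and 6.17% of neutrophil-like cells and Klrk1 in 0.66%, 4.44% and 4.94%. These shares were highest in the combination library, so the sources of background did not rank the libraries alike. Neutrophil-like cells were shallower, with median UMIs of 2092.5, 1326.5 and 1444.5, against 2862 to 7179 in the 4 lymphoid classes. Among levels of at least 50 CPM the 95% Poisson interval reached at most 16.9% from the value.

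Ncr1, Klrb1c, Klrb1b and Tyrobp formed a group that was high in Cd3-negative NK cells, low in Cd3-positive NK-receptor cells and at or near background in CD8 and CD4 cells. Ncr1, the NKp46 gene, stood at 766, 585 and 517 CPM in Cd3-negative NK cells and at 67.1, 63.0 and 58.1 CPM in Cd3-positive NK-receptor cells. The step between these classes was 11.4-fold (95% interval 9.7 to 13.5), 9.28-fold (8.74 to 9.86) and 8.89-fold (8.1 to 9.78), and the levels of the classes did not overlap. Its size depended on how the classes were set. When cells of all NK-receptor sub-clusters were assigned by their own Cd3 UMIs alone, so that the cells left out above joined the Cd3-positive class, the step of Ncr1 was 3.25-fold, 5.24-fold and 2.95-fold, and with finer sub-clusters (resolution 2) it was 6.56-fold, 7.45-fold and 4.77-fold. In CD8 cells Ncr1 was at 1.97, 1.99 and 2.64 CPM and in CD4 cells at 3.06, 7.34 and 5.21 CPM. These are below the 4.77, 12.6 and 9.67 CPM of macrophage-like cells and are read as background. Of Cd3-negative NK cells 46.2%, 44.6% and 39.3% had an Ncr1 UMI after thinning, against 5.41%, 6.19% and 6.85% of Cd3-positive NK-receptor cells and 0%, 0.667% and 3.70% of neutrophil-like cells. Without thinning the share in Cd3-negative NK cells was 77.9%, 67.3% and 58.0%. The 0 among 303 neutrophil-like cells allows a share of up to 0.990%.

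Klrb1c, the NK1.1 gene, had 499.6, 413 and 453 CPM in Cd3-negative NK cells, with the limit that reads of the 129 allele in these F1 mice may align differently. Cd3-positive NK-receptor cells held 103, 87.5 and 74.0 CPM, so its step between the classes, 4.86-fold, 4.72-fold and 6.11-fold, was smaller than that of Ncr1, although in the combination library finer sub-clusters gave 5.22-fold for Klrb1c and 4.77-fold for Ncr1. Assigned by their own Cd3 UMIs, the cells gave steps of 2.81-fold, 3.75-fold and 2.93-fold for Klrb1c. CD8 cells had 3.25, 4.84 and 5.71 CPM and CD4 cells 6.92, 6.71 and 4.32, all under the 14.5 to 19.1 CPM of macrophage-like cells. NK1.1 transcript was thus carried at a low level by Cd3-positive NK-receptor cells and was not distinguishable from background in CD8 and CD4 cells.

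Klrb1b, the inhibitory partner in the same gene family, was at 448, 369 and 385 CPM in Cd3-negative NK cells and at 34.8, 28.5 and 28.8 CPM in Cd3-positive NK-receptor cells. This was the widest step of the receptors, at 12.9-fold in the mono-IL-10 and IL-10/2-Trikine libraries and 13.4-fold in the combination. Its place as the widest was lost to Ncr1 in the mono-IL-10 library under both of these class definitions. With cells assigned by their own Cd3 UMIs the step of Klrb1b was 3.04-fold, 6.46-fold and 3.77-fold, and with finer sub-clusters 6.09-fold, 8.54-fold and 6.94-fold. CD8 cells held 4.02, 2.27 and 4.56 CPM and CD4 cells 16.2, 6.79 and 7.47 CPM. The share of Cd3-positive NK-receptor cells with Klrb1b, 2.95%, 2.58% and 2.88%, did not exceed the 10.6%, 2.00% and 6.17% of neutrophil-like cells in 2 of the 3 libraries. By CPM, the level of this class also lay under the 65.4 to 196 CPM of empty droplets over the libraries. The size of the step of Klrb1b and its rank among the receptors are therefore uncertain. Klrb1b was also found outside the lymphocytes. Macrophage-like cells carried 328, 204 and 320 CPM, below the level of NK cells but above every T cell class, and 26.8%, 17.8% and 25.7% of them had a UMI, whereas Klrb1c was found in 1.45%, 1.34% and 1.76%.

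Tyrobp, the gene of the adaptor DAP12, stood at 1781, 1535 and 1593 CPM in Cd3-negative NK cells and at 164, 170.2 and 175 CPM in Cd3-positive NK-receptor cells. It was 10.9-fold, 9.02-fold and 9.09-fold higher in the Cd3-negative class, but 2.73-fold, 4.69-fold and 2.54-fold higher with cells assigned by their own Cd3 UMIs and 5.87-fold, 7.27-fold and 5.002-fold with finer sub-clusters. CD8 cells had 17.4, 13.0 and 23.4 CPM and CD4 cells 20.5, 23.3 and 24.6 CPM, with a UMI in at most 2.52% of cells after thinning. B cell-like cells, which are not known for Tyrobp, had one in 11.5%, 5.75% and 8.06%, but 22.6%, 20.7% and 18.8% of them were among the highest doublet scores, against at most 1.69% of CD8 and CD4 cells. CD8 cells without a UMI of C1qa, C1qb, C1qc or Lyz2, genes of myeloid cells, still had Tyrobp at 15.4, 13.3 and 26.0 CPM and such CD4 cells at 17.4, 26.1 and 23.7 CPM, so a low level in T cells cannot be told apart from background here. Macrophage-like cells, where the gene is known to act, held 1386, 1322 and 1415 CPM. UMIs of C1qa, C1qb, C1qc and Lyz2, taken at the ratio of empty droplets, matched 0.504% to 0.925% of the Tyrobp UMIs in Cd3-negative NK cells, 3.27% to 6.73% in Cd3-positive NK-receptor cells and 25.6% to 63.9% in CD8 and CD4 cells.

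**Figure D1:**
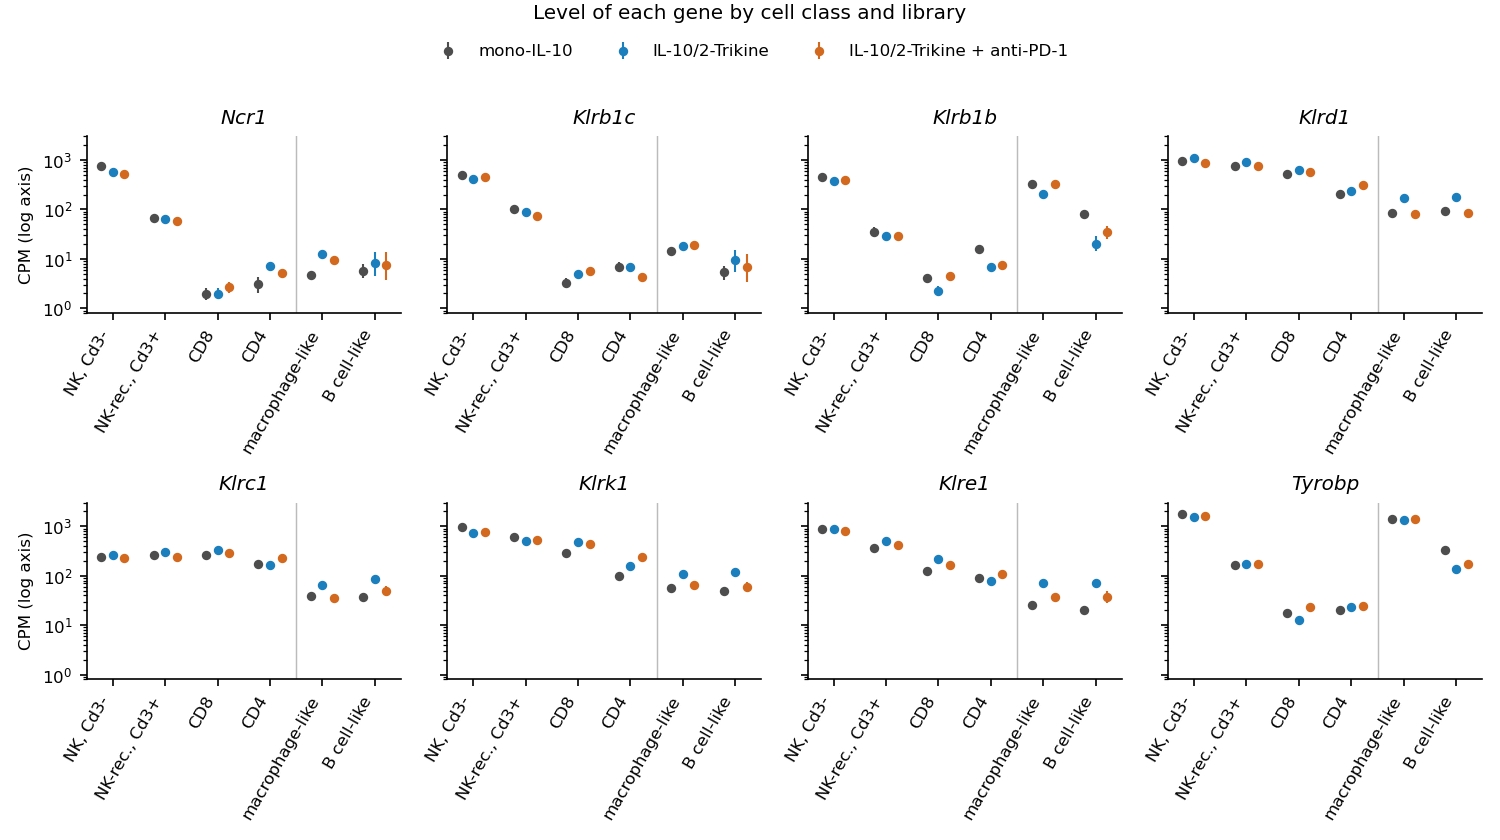
CPM of each gene (log axis) in 6 classes of cells, with 1 point per library and 95% Poisson intervals for counting error. Ncr1, Klrb1c, Klrb1b and Tyrobp step down from Cd3-negative NK cells to CD8 and CD4 cells by 10-fold or more, while Klrc1 stays between 161 and 324 CPM in all 4 lymphoid classes.

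Klrd1, Klrc1, Klrk1 and Klre1 formed the other group, which was well above macrophage-like cells in the NK-receptor and CD8 classes and closer to them in CD4 cells. Dendritic cell-like cells held Klrd1 at 202, 266 and 179 CPM and Klrk1 at 180.5, 205 and 196 CPM. Of these cells 21.8%, 36.8% and 39.2% were among the highest doublet scores, and the part of doublets in their levels was not tested. The CD4 levels given below were under the dendritic cell-like ones in the IL-10/2-Trikine library for both genes, and in the mono-IL-10 library for Klrk1. Klrk1 in CD4 cells was also under the CPM of empty droplets in all 3 libraries, and Klrd1 in the IL-10/2-Trikine and combination libraries, so the CD4 levels of these genes are less certain than those of the other classes. Klrd1, the CD94 gene, was at 954, 1103 and 865 CPM in Cd3-negative NK cells, at 770.5, 922 and 753 in Cd3-positive NK-receptor cells, at 518, 627 and 568 in CD8 cells and at 205, 235 and 311 in CD4 cells. The order of these levels was the same in every library and each neighboring ratio had an interval above 1. The steps were small at the top, 1.24-fold, 1.20-fold and 1.15-fold between the NK classes. Over the alternative settings this step ran from 1.16 to 1.32, from 0.977 to 1.24 and from 0.939 to 1.19, so its direction turned in the IL-10/2-Trikine and combination libraries, for example in cells without a Mki67 UMI. The steps were larger at the bottom, 2.53-fold, 2.67-fold and 1.82-fold between CD8 and CD4 cells, and reached 5.45-fold, 7.04-fold and 2.11-fold over the alternatives, which include removal of background.

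Klrc1, the NKG2A gene, differed little in CPM between the NK-receptor and CD8 classes and was lower in CD4 cells. Cd3-negative NK cells had 236, 259 and 225 CPM, Cd3-positive NK-receptor cells 261, 301 and 234, CD8 cells 265, 324 and 294 and CD4 cells 172, 161 and 232. In the IL-10/2-Trikine and combination libraries CD8 cells stood highest. CD8 cells had 1.55, 2.01 and 1.27 times the level of CD4 cells, past 2-fold in the IL-10/2-Trikine library. The CD4 levels of the mono-IL-10 and IL-10/2-Trikine libraries lay within the 82.5 to 194 CPM of empty droplets over the libraries. Cd3-negative NK cells and Cd3-positive NK-receptor cells did not differ beyond counting error in the mono-IL-10 library (ratio 0.905, 95% interval 0.809 to 1.01) and in the combination library (0.963, 0.898 to 1.03), nor did Cd3-positive NK-receptor and CD8 cells in the mono-IL-10 library (0.982, 0.903 to 1.07). With the mean UMIs of a macrophage-like cell taken off each cell, the ratio of Cd3-negative NK to Cd3-positive NK-receptor cells was 0.747, 0.539 and 0.769, against 0.889, 0.825 and 0.956 with the CPM of these cells taken off, so the gap widened with the first treatment. The share of cells with a Klrc1 UMI after thinning ran from 16.7% to 27.9% in the NK-receptor and CD8 classes and from 11.95% to 20.3% in CD4 cells, against 1.32% to 3.70% in neutrophil-like cells. Reads of Klrc1 can be shared with its close copies Klrc2 and Klrc3, and those of Klrb1b and Klrb1c with the other Klrb1 genes, so their levels are less certain.

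Klrk1, the NKG2D gene, stepped down from 959, 745 and 752 CPM in Cd3-negative NK cells to 599, 503 and 536 in Cd3-positive NK-receptor cells, 293, 483 and 448 in CD8 cells and 98.9, 159 and 238 in CD4 cells. In the mono-IL-10 library Cd3-positive NK-receptor cells had 2.05 times (1.93 to 2.16) the level of CD8 cells. That gap was 1.04 (1.02 to 1.07) in the IL-10/2-Trikine library and 1.20 (1.16 to 1.24) in the combination, so the 2 classes stood nearly level under the Trikine, where the alternatives ran from 0.980 to 1.12. The step of Klrk1 between the NK classes was 1.60-fold, 1.48-fold and 1.40-fold and stayed above 1 over all alternatives, at 1.26 or more. Klre1 ranged from 886, 882 and 801 CPM in Cd3-negative NK cells through 368, 508 and 419 in Cd3-positive NK-receptor cells to 127, 217 and 167 in CD8 cells and 91.8, 76.9 and 109 in CD4 cells. Its step between the NK classes, 2.41-fold, 1.74-fold and 1.91-fold, ran from 1.47 to 2.82 over the libraries and alternatives. Its CD4 level in the IL-10/2-Trikine library was close to the 72.9 CPM of macrophage-like cells of that library and under the 104 CPM of dendritic cell-like cells, and is not read as expression.

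Read against all genes, the receptors stood apart between classes more often than between libraries. The NK-receptor classes were themselves chosen by other NK genes, so this contrast is not independent of that choice. With a gene counted when its summed UMIs in a pair reached 20, all 8 genes were measured in every comparison. Past 2-fold, 5, 4 and 4 of the 8 were higher in Cd3-negative NK than in Cd3-positive NK-receptor cells and none lower, where 13% of all genes in the mono-IL-10, 15.1% in the IL-10/2-Trikine and 16.1% in the combination library differed 2-fold either way. The 4 that passed in every library were Ncr1, Klrb1c, Klrb1b and Tyrobp, and Klre1 passed in the mono-IL-10 library at 2.41-fold. From Cd3-positive NK-receptor to CD8 cells, 6, 5 and 5 of the 8 were higher by over 2-fold, against 12.9%, 8.48% and 8.7% of all genes. The median of the 8 was 2.33, 2.44 and 1.99 on the log2 scale there, while that of all genes lay between −0.0039 and 0.0082. Genes that vary together with the NK genes used for the choice would be higher there by selection. How much of this gap the choice accounts for was not tested. Between CD8 and CD4 cells 2 were higher and 2 lower in the mono-IL-10 library, 4 higher and 2 lower in the IL-10/2-Trikine library and none past 2-fold in the combination library, where 9.93%, 10.9% and 11.2% of all genes passed. Those higher in CD8 cells were of the shared group, Klre1 of the IL-10/2-Trikine library among them against a CD4 level not read as expression, and those lower were of the group that was low in T cells.

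**Figure D2:**
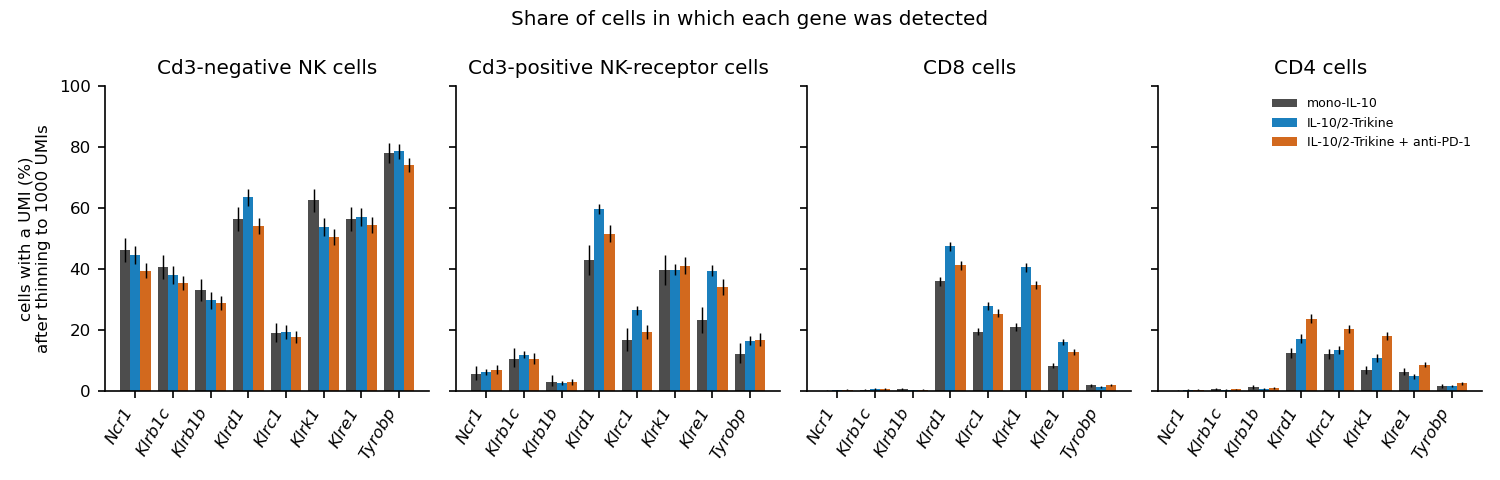
Percent of cells in which each gene had a UMI after each cell was thinned to 1000 UMIs, by class, with 1 bar per library and exact binomial 95% intervals. Tyrobp was detected in 74.1% to 78.7% of Cd3-negative NK cells, and Klrd1 and Klrk1 in 35.9% to 47.5% and 21.0% to 40.5% of CD8 cells.

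Single cells carried different numbers of these receptors. After thinning, at least 3 of the 7 receptor genes were detected in 69.2%, 66.2% and 57.6% of Cd3-negative NK cells, in 17.0%, 27.5% and 23.3% of Cd3-positive NK-receptor cells, in 5.70%, 12.8% and 10.3% of CD8 cells and in 3.05%, 2.41% and 4.88% of CD4 cells. At least 1 was detected in 97.8%, 97.9% and 95.9% of Cd3-negative NK cells and in 57.2%, 77.8% and 70.2% of CD8 cells. For CD4 cells the share with any receptor went from 26.3% (24.2% to 28.5%) through 33.9% (32.1% to 35.7%) to 47.7% (46.2% to 49.3%), and these intervals did not overlap. Klrd1 and Klrk1 were highest in the IL-10/2-Trikine library in empty droplets and macrophage-like cells, by CPM. In neutrophil-like cells they were highest in the combination, by share of cells. The part of background in either step was not tested.

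**Figure D3:**
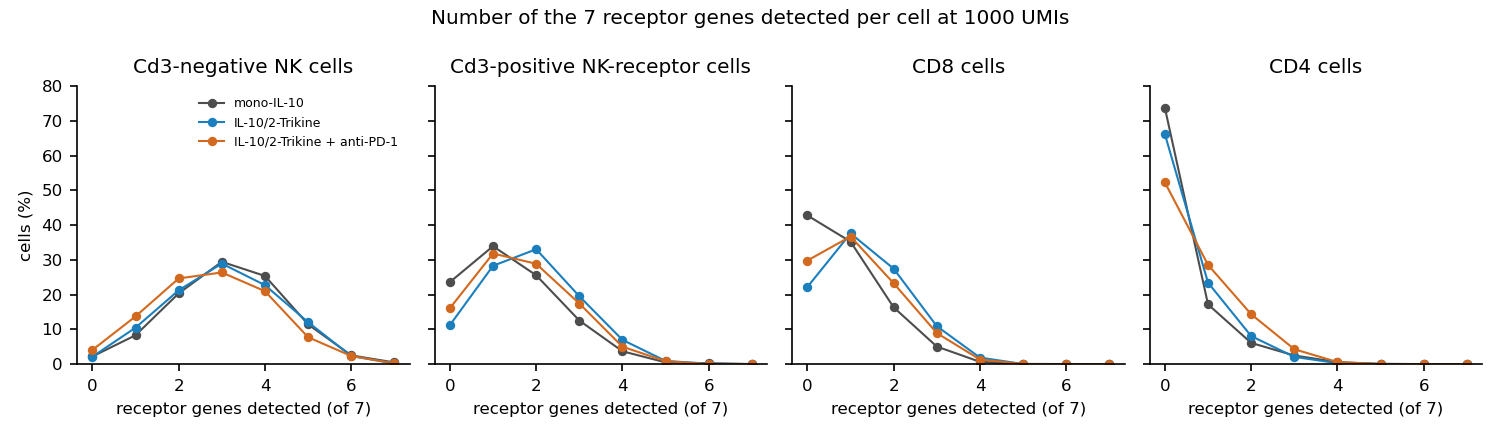
Percent of cells of each class by the number of the 7 receptor genes detected after thinning to 1000 UMIs, with 1 line per library. Cd3-negative NK cells peak at 3 genes and CD4 cells at 0 in every library.

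Receptor genes and their partner genes were detected together to different degrees. NKG2A reaches the surface as a pair with CD94, which can also pair with NKG2C or NKG2E. Among CD4 cells, Klrd1 was detected in 32.8% (26.4% to 39.7%), 30.6% (25.8% to 35.7%) and 34.2% (30.9% to 37.6%) of cells with Klrc1, and in 9.51%, 15.1% and 21.0% of cells without it, and no interval overlapped that of the same library. In CD8 cells the shares were 44.4%, 50.8% and 46.0% with Klrc1 against 33.9%, 46.2% and 39.6% without it. Cd3-negative NK cells had Klrd1 in 52.9%, 61.5% and 51.7% of cells with Klrc1 and in 57.1%, 63.9% and 54.6% without, with overlapping intervals in all 3 libraries. Cd3-positive NK-receptor cells had it in 52.9%, 61.5% and 58.6% with Klrc1 and in 41.0%, 59.0% and 49.9% without, and these intervals overlapped too. The share was thus higher with Klrc1 in all 3 libraries in CD8, CD4 and Cd3-positive NK-receptor cells, with separate intervals in the T cell classes only, and lower in all 3 in Cd3-negative NK cells. Overlap of intervals is no test of a difference, and neither these differences nor those between classes were tested, since the cells of a library are not replicates. In CD4 cells Klrk1 was likewise detected more often beside Klrd1, in 21.4%, 21.8% and 28.0% of cells with Klrd1. Of CD4 cells without Klrd1, 4.68%, 8.50% and 14.9% had Klrk1.

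The adaptor genes of NKG2D were detected to different degrees in cells with Klrk1. Tyrobp was detected in 77.2%, 79.8% and 74.6% of Cd3-negative NK cells with Klrk1, but in 1.56%, 1.61% and 1.86% of CD8 cells with Klrk1, which is below the share in B cell-like cells. Cd3-negative NK cells without Klrk1 had Tyrobp in 79.5%, 77.4% and 73.6%, with intervals that overlapped those of cells with Klrk1. Hcst, the gene of the other NKG2D adaptor, was detected in 30.2%, 26.9% and 27.9% of CD8 cells with Klrk1 and in 20.2%, 22.1% and 21.5% of such NK cells. By level, Hcst stood at 227, 202 and 221 CPM in Cd3-negative NK cells and at 262, 194 and 238 CPM in CD8 cells, a narrower span than that of Tyrobp. Among Cd3-positive NK-receptor cells, Tyrobp was detected in 45.5%, 41.6% and 24.7% of cells with Ncr1 and in 10.1%, 14.8% and 16.2% of cells without. The intervals were apart in the mono-IL-10 and IL-10/2-Trikine libraries and touched in the combination (15.8% to 35.5% against 14.0% to 18.5%). The Cd3-positive cells with an Ncr1 UMI numbered 22, 185 and 81. Of the whole Cd3-positive class, 5.05%, 3.83% and 3.17% of cells were among the highest doublet scores, against at most 0.753% of Cd3-negative NK cells. Doublets were kept, and their part in this pairing was not tested.

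The first comparison between libraries asks what the added IL-2 receptor module does to these genes, and divides IL-10/2-Trikine by mono-IL-10. The directions differed by class. In Cd3-negative NK cells Ncr1 was lower at 0.764 times (0.721 to 0.809) the mono-IL-10 level, Klrk1 at 0.776 (0.738 to 0.817), Klrb1b at 0.822, Klrb1c at 0.827 and Tyrobp at 0.862, while Klrd1 was higher at 1.16 (1.10 to 1.21), or 1.08 and 1.01 with background taken off in the 2 ways described for CD4 cells below. Klrc1 was at 1.098 (0.997 to 1.21) and Klre1 at 0.995 (0.946 to 1.05). No member reached 2-fold in this class, where 7.25% of all genes did. Without cells with a Mki67 UMI the ratio of Tyrobp was 1.01. Klrb1c stood at 530.3, 526 and 512 CPM in NK cells without Mki67 and at 349, 225 and 249 CPM in those with it. Ncr1 kept its order among NK cells without Mki67, at 794, 636 and 549 CPM, and so did Klrk1 from mono-IL-10 to IL-10/2-Trikine, at 984 and 814 CPM. The median of all genes between these libraries was −0.07, −0.14, −0.13 and −0.17 on the log2 scale in NK, Cd3-positive NK-receptor, CD8 and CD4 cells, a shift to which the values here and below are relative.

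In CD8 cells the shared receptors were higher under IL-10/2-Trikine. Klre1 stood at 1.71 times (1.64 to 1.78) the mono-IL-10 level, Klrk1 at 1.65 (1.60 to 1.69), Klrc1 at 1.22 (1.18 to 1.26) and Klrd1 at 1.21 (1.18 to 1.24). The share of CD8 cells with Klrk1 after thinning went from 21.0% to 40.5% and that with Klre1 from 8.29% to 16.0%, and without thinning from 52.0% to 83.1% and from 24.6% to 44.2%. With the CPM of macrophage-like cells of the same library taken off, the ratio of Klrk1 was 1.58, that of Klre1 1.43, that of Klrc1 1.15 and that of Klrd1 1.06, so that of Klrd1 moved closest to 1. Over all alternative settings Klrk1 in CD8 cells kept between 1.58 and 1.99 and Klre1 between 1.43 and 1.97, where the only backgrounds taken off were those of macrophage-like cells. Empty droplets went from 59.3 to 193 CPM of Klre1, beside 127 and 217 CPM in CD8 cells, and from 114 to 284 CPM of Klrk1. Their part in these ratios was not tested. Of the genes that were at or near background in CD8 cells, Klrb1c was at 1.49 times, Ncr1 at 1.01, Tyrobp at 0.746 and Klrb1b at 0.564. None of the 8 genes passed 2-fold, against 9.97% of all genes. Klrk1 was thus lower in NK cells and higher in CD8 cells of the same pair of libraries.

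Cd3-positive NK-receptor cells had a mixed pattern in this comparison. Klre1 was higher at 1.38 times (1.29 to 1.48), Klrd1 at 1.20 (1.14 to 1.26) and Klrc1 at 1.15 (1.06 to 1.25), while Klrk1 was at 0.839 (0.795 to 0.887), which turned to 1.02 under TMM scaling. Klrb1c was at 0.852 (0.746 to 0.976), with alternatives from 0.609 to 1.27. Ncr1, at 0.939 (0.797 to 1.11), Klrb1b, at 0.818 (0.651 to 1.04), and Tyrobp, at 1.04 (0.938 to 1.16), did not differ beyond counting error. With cells assigned by their own Cd3 UMIs these 3 genes were past 2-fold lower, Ncr1 at 0.468, Klrb1b at 0.383 and Tyrobp at 0.498. In cells without a Mki67 UMI, Tyrobp was at 1.71 and Klrb1b at 1.45, so the direction turned with the setting. None of the 8 passed 2-fold in the class as first set, against 15.1% of all genes. The make-up of this class changed between the libraries, and within its parts the values differed. In the sub-cluster with few cycling cells, which had 324 and 951 cells in the 2 libraries, Tyrobp went from 192 to 320 CPM (ratio 1.67), Klre1 was 1.68 times higher, Klrd1 1.40, Klrc1 1.39, Klrb1b 1.39, Ncr1 1.25 and Klrb1c 1.21, and Klrk1 stood at 0.972. In the sub-cluster with many cycling cells the numbers were 92 and 2051, and Tyrobp there went from 119 to 144 CPM. The class as a whole had Tyrobp at 164 and 170.2 CPM.

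CD4 cells had lower levels of the shared receptors. Klrk1 was 1.61 times (1.499 to 1.724) higher under IL-10/2-Trikine than under mono-IL-10, from 98.9 to 159 CPM. B cell-like cells, taken as background, moved from 49.6 to 116 CPM, macrophage-like cells from 56.2 to 108 CPM and neutrophil-like cells from 30.96 to 110.3 CPM. After the macrophage-like CPM was taken off, CD4 cells held 42.7 and 51.1 CPM of Klrk1, a ratio of 1.20. When the mean UMIs of a macrophage-like cell were taken off each cell instead, 12.5 and 73.8 CPM remained, a ratio of 5.92. The neutrophil-like level was not taken off, so whether the direction of Klrk1 would hold with it was not tested. Klrd1 was at 1.15 times (1.09 to 1.21), at 0.551 with the CPM taken off and at 1.41 with the UMIs per cell taken off, so its direction depended on how background was treated. Klrc1 was at 0.940, and at 0.732 and 0.991 in these 2 ways. Over all alternatives it reached 1.10, so its direction turned. Klre1 was at 91.8 and 76.9 CPM, and no fold is drawn from the second level. Ncr1 at 2.40 times and Klrb1b at 0.419 times were the 2 genes past 2-fold in this class, where 13.4% of all genes passed, and both were at or below background levels. Tyrobp was at 1.13 and Klrb1c at 0.970 times, with intervals that included 1. The level of Klrk1 in CD4 cells and that in the background cells were thus both higher under IL-10/2-Trikine.

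**Figure D4:**
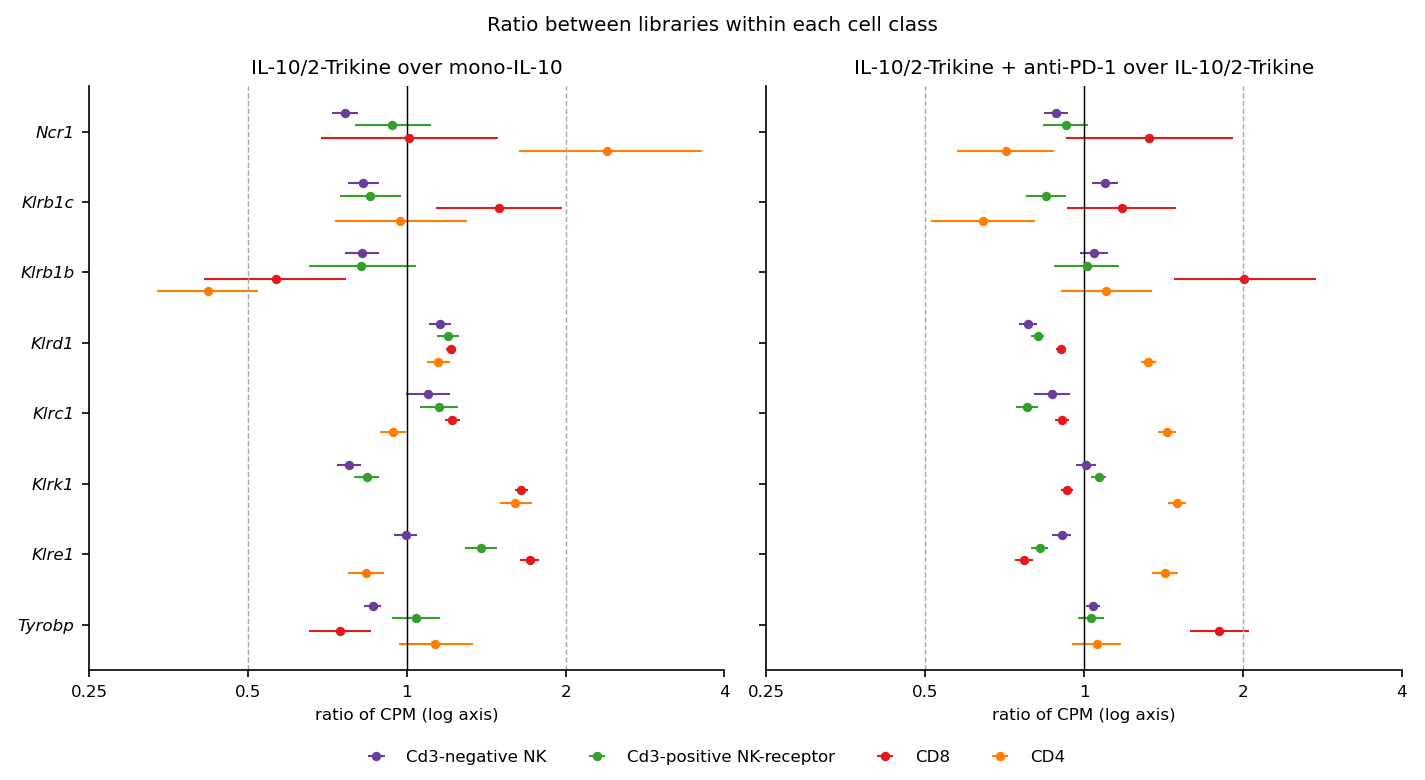
Ratio of CPM between libraries (log axis) for each gene in the 4 classes, with exact conditional 95% intervals for counting error and dashed lines at 2-fold. Klrk1 lies below 1 in both NK-receptor classes and above 1 in CD8 and CD4 cells in the left panel, and Klrd1, Klrc1 and Klrk1 of CD4 cells lie apart from the other classes in the right panel. The Klre1 points of CD4 cells rest on a level that is not read as expression.

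The second comparison, combination over IL-10/2-Trikine, asks what anti-PD-1 adds. In CD4 cells Klrk1 was higher at 1.499 times (1.44 to 1.56), Klrc1 at 1.44 (1.38 to 1.49) and Klrd1 at 1.32 (1.28 to 1.37). Klrk1 went from 159 to 238 CPM, Klrd1 from 235 to 311 and Klrc1 from 161 to 232. Klre1 was at 76.9 and 109 CPM, the first of which is not read as expression, so no fold is drawn from it. The background differed by its source. Macrophage-like cells went from 108 to 66.1 CPM of Klrk1 and from 170 to 80.3 CPM of Klrd1, and empty droplets from 284 to 247 and from 425 to 335. Neutrophil-like cells went from 110.3 to 113 CPM of Klrk1 and from 135 to 185 CPM of Klrd1. The CD4 levels of both genes were under those of empty droplets in both libraries, and what part of a CD4 cell's UMIs is free RNA was not measured. For Klrc1, the 161 CPM of the IL-10/2-Trikine library lay within the 82.5 to 194 CPM of empty droplets over the libraries. With the macrophage-like CPM taken off the ratios were 3.37 for Klrk1, 3.55 for Klrd1 and 2.02 for Klrc1. With the UMIs per macrophage-like cell taken off they were 2.59, 2.52 and 1.86. Klre1 was left with 4.06 CPM in the IL-10/2-Trikine library by the first way and 19.4 CPM by the second. The share of CD4 cells with Klrk1 after thinning went from 10.8% to 17.98% and that with Klrc1 from 13.3% to 20.3%, and without thinning from 34.8% to 47.9% and from 43.8% to 57.3%. Without background taken off none of the 8 passed 2-fold, against 4.31% of all genes. Over all alternative settings Klrk1 stayed between 1.44 and 3.37 times, Klrc1 between 1.38 and 2.02 times and Klrd1 between 1.26 and 3.55 times, where the only backgrounds taken off were those of macrophage-like cells. The other genes were at 0.643 (Klrb1c), 0.710 (Ncr1), 1.10 (Klrb1b) and 1.06 (Tyrobp) times, from CD4 levels of 24.6 CPM or less.

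The directions were mixed in the other classes. In CD8 cells Klre1 was at 0.768 times (0.738 to 0.799), Klrd1 at 0.905 (0.885 to 0.925), Klrc1 at 0.908 (0.881 to 0.936) and Klrk1 at 0.928 (0.905 to 0.951) of the IL-10/2-Trikine level. With the macrophage-like level taken off, Klre1 stood at 0.896, Klrc1 at 0.995, Klrk1 at 1.02 and Klrd1 at 1.07, so the last 2 changed direction. Tyrobp was at 1.80 (1.59 to 2.05), from 13.0 to 23.4 CPM, Ncr1 at 1.33 and Klrb1c at 1.18. Klrb1b, at 2.27 and 4.56 CPM and so at background, was the 1 gene past 2-fold in CD8 cells, against 5.45% of all genes. Cd3-positive NK-receptor cells had Klrc1 at 0.779 (0.742 to 0.818), Klrd1 at 0.817 (0.795 to 0.839), Klre1 at 0.825 (0.795 to 0.855) and Klrb1c at 0.846 (0.775 to 0.923), the last of which ran from 0.759 to 1.42 over the alternatives and so turned. Ncr1 was at 0.923, Klrb1b at 1.01 and Tyrobp at 1.03, with intervals that included 1 and alternatives from 0.857 to 1.59, from 0.759 to 1.81 and from 0.861 to 1.93. Klrk1 was higher at 1.07 (1.03 to 1.10) there, at 1.19 and 1.17 with background taken off in the 2 ways, and at 0.990 under TMM scaling, an alternative way to set library sizes. The make-up of this class differed here too. Its sub-cluster with few cycling cells had 951 and 689 cells, and that with many had 2051 and 511. In these, Ncr1 was at 0.810 and 0.801, Tyrobp at 0.890 and 0.847 and Klrb1c at 0.821 and 0.597, all with intervals below 1. Klrb1b, at 0.823 and 0.960, and Klrk1, at 1.05 and 1.02, had intervals that included 1. Cd3-negative NK cells had Klrd1 at 0.784 (0.754 to 0.815), Klrc1 at 0.870 (0.805 to 0.940) Klre1 at 0.908 (0.871 to 0.946) and Ncr1 at 0.884 (0.840 to 0.931). Klrb1c was at 1.095 (1.03 to 1.16) and Tyrobp at 1.04 (1.01 to 1.07), but over the alternatives they ran from 0.950 to 1.15 and from 0.936 to 1.07, so both directions turned. Klrk1 (1.01, 0.966 to 1.06) and Klrb1b (1.05, 0.982 to 1.11) did not differ beyond counting error. With background taken off in the 2 ways, Klrc1 in these cells was at 0.973 and 1.18, which turned its direction, Klrd1 at 0.841 and 0.925, Klre1 at 0.943 and 0.987, and Klrk1 at 1.08 and 1.17. No gene of the set passed 2-fold in either NK-receptor class, where 4.59% and 3.79% of all genes did. The 2 comparisons share the IL-10/2-Trikine library, so its own deviations enter both.

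The same genes were read within sub-clusters. In the 6 CD8 sub-clusters with at least 100 cells in both libraries, Klrk1 was higher under IL-10/2-Trikine than under mono-IL-10 in 6 of 6, by 1.42 to 4.17 times, and Klre1 in 6 of 6, by 1.40 to 2.83 times, all with intervals above 1. The 2.83 of Klre1 was in sub-cluster 0, from 23.1 to 65.3 CPM, where macrophage-like cells held 25.8 to 72.9 CPM over the libraries. It is not read as a difference in expression. Under IL-10/2-Trikine, Klre1 of sub-clusters 1 and 10, at 167 and 139 CPM, also lay under the 193 CPM of empty droplets. No background was taken off within sub-clusters, so its part in these counts was not tested. Klrd1 was higher in 6 of 6, by 1.04 to 1.78 times and with an interval above 1 in 5, and Klrc1 in 5 of 6, from 0.812 to 3.21 times. The widest ratio of Klrk1 was in sub-cluster 0, led by Dapl1, Igfbp4 and Ccr7, genes of resting T cells. Klrk1 there went from 107 CPM in 667 cells to 446 CPM in 155 cells, and Klrc1 from 54.9 to 176 CPM. The 107 CPM lay under the 114 CPM of empty droplets, and neither Klrc1 level exceeded their 82.5 to 194 CPM over the libraries. At resolution 2, the sub-cluster led by Dapl1 and Igfbp4 held 1259 cells of the mono-IL-10 and 23 of the IL-10/2-Trikine library. Sub-cluster 0 may thus hold unlike cells in these libraries, and the part of this in its ratios was not tested. Sub-cluster 7, led by Calcb, Cd8a and Cxcr6, had the highest Klrd1 of these 6 at 766, 983 and 797 CPM and the highest Klre1 at 216, 357 and 254 CPM. From IL-10/2-Trikine to the combination, Klrd1 was at 0.600 to 0.811 times and lower in 6 of 6 CD8 sub-clusters, a wider gap than the 0.905 of the whole class, whose sub-clusters differed in size between the libraries.

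CD4 cells were uneven too. Sub-cluster 12, led by Csf1, Cd4, Ccl3 and Lag3, carried Klrd1 at 429, 467 and 525 CPM, Klrc1 at 364, 326 and 356 and Klrk1 at 153, 218 and 344. Sub-cluster 3, led by Tnfsf8, Pparg and Cd40lg, held 74.2, 86.3 and 150.3 CPM of Klrk1. CD4 cells with a UMI of Foxp3, the factor of regulatory T cells, had Klrd1 at 52.3, 168 and 129 CPM, against 232, 253 and 353 CPM in CD4 cells without, and Klrk1 at 35.5, 99.0 and 120.1 against 110.3, 175 and 265. In the mono-IL-10 and IL-10/2-Trikine libraries the levels with Foxp3 lay under those of macrophage-like cells, 86.7 and 170 CPM of Klrd1 and 56.2 and 108 of Klrk1. In all libraries they lay under empty droplets, so they are not read as expression. From IL-10/2-Trikine to the combination, Klrk1 was higher in 5 of 5 CD4 sub-clusters, by 1.23 to 1.74 times, and Klrc1 in 5 of 5, by 1.09 to 1.89 times, all with intervals above 1. The 1.74 of Klrk1 was in sub-cluster 3, whose 86.3 CPM lay under the 108 CPM of macrophage-like cells in the IL-10/2-Trikine library. That ratio is not read as a difference in expression. Background was not taken off in these sub-clusters, so its part in the counts was not tested. Klrd1 ran from 0.973 to 1.36 times, with an interval above 1 in 3 of the 5. In sub-clusters 10 and 15 its interval included 1, so the difference in the whole class was not seen in every sub-cluster. The 4 sub-clusters compared between mono-IL-10 and IL-10/2-Trikine had Klrk1 higher in 4 of 4, by 1.16 to 1.46 times and with an interval above 1 in 3, beside the higher background given above. Sub-cluster 12 had 415, 482 and 1468 CD4 cells, out of the 1734, 2661 and 3975 of the class.

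**Figure D5:**
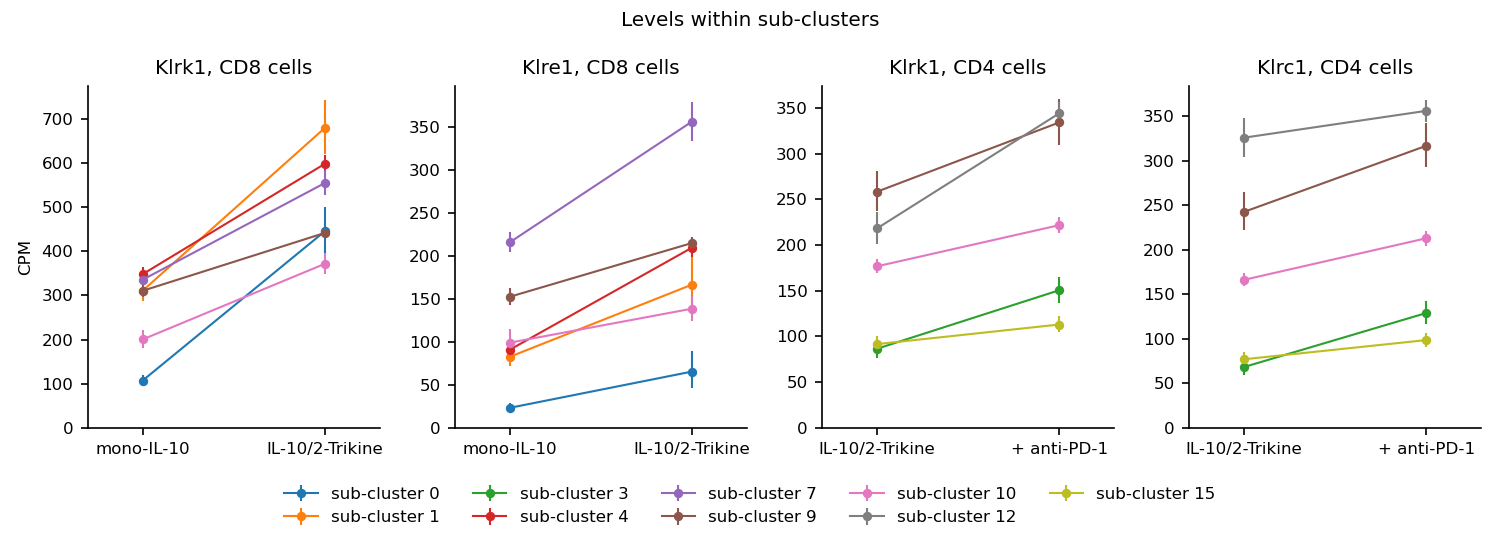
CPM of Klrk1 and Klre1 in CD8 sub-clusters of the mono-IL-10 and IL-10/2-Trikine libraries and of Klrk1 and Klrc1 in CD4 sub-clusters of the IL-10/2-Trikine and combination libraries, with 95% Poisson intervals. Each line is 1 sub-cluster with at least 100 cells of the class in both libraries, and every line is higher on the right. Klre1 of CD8 sub-cluster 0 and Klrk1 of CD4 sub-cluster 3 start under the level of macrophage-like cells and are not read as differences in expression. No background was taken off.

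Other genes of these pathways were described by 3 lists. Of the 15 measured genes among 16 adaptors and signaling genes, 4 were over 2-fold higher and 1 lower in Cd3-negative NK than in Cd3-positive NK-receptor cells in each library, beside the 13%, 15.1% and 16.1% of all genes past 2-fold either way. Fcer1g, an adaptor with the same kind of signaling motif as Tyrobp and 1 of the 14 genes used to choose the NK-receptor sub-clusters, stood at 1679, 1537 and 1675 CPM in Cd3-negative NK cells, at 398, 512 and 518 in Cd3-positive NK-receptor cells and at 39.9, 34.7 and 45.1 in CD8 cells, so its step between the NK classes (4.21, 3.00 and 3.23) was smaller than that of Tyrobp. The kinase gene Syk, which acts behind both adaptors, was 5.94, 6.33 and 10.3 times higher in the Cd3-negative class. Lat, the scaffold of T cell receptor signaling, was at 0.323, 0.263 and 0.297 times. Of 16 other receptors, 6, 5 and 6 were higher and 3, 2 and 2 lower past 2-fold in the Cd3-negative class. Klri2, a partner of Klre1, was 13.9, 12.3 and 14.7 times higher and Klrb1a, of the NKR-P1 family, 11.7, 8.78 and 8.43 times. Of the NK transcription factors measured, 7 of 13, 5 of 14 and 6 of 14 were higher and none lower, with Eomes at 4.10, 5.01 and 5.67 times and Irf8 at 12.5, 8.98 and 8.41 times.

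From mono-IL-10 to IL-10/2-Trikine, 2 of 13, 3 of 14, 2 of 14 and 3 of 13 transcription factors were past 2-fold, each time lower, in NK, Cd3-positive NK-receptor, CD8 and CD4 cells. The shares of all genes past 2-fold were 7.25%, 15.1%, 9.97% and 13.4%. Of the 15 adaptors and signaling genes 0, 0, 1 and 2 passed, and of the 16 other receptors 1, 1, 2 and 3. From IL-10/2-Trikine to the combination, 1 transcription factor in NK cells and 1 signaling gene in CD8 cells passed, where 3.79% and 5.45% of all genes did. From mono-IL-10 to IL-10/2-Trikine the transcription factors had medians of −0.42, −0.72, −0.44 and −0.51 on the log2 scale in NK, Cd3-positive NK-receptor, CD8 and CD4 cells, below the all-gene medians of −0.07, −0.14, −0.13 and −0.17. The adaptors and signaling genes, at −0.34, −0.21, −0.41 and −0.45, and the other receptors, at −0.31, −0.21, −0.23 and −0.26, lay below them too. Eomes, a factor of NK cells and memory T cells, went from 87.1 to 41.8 CPM in Cd3-positive NK-receptor cells, from 91.9 to 40.3 in CD8 cells and from 58.1 to 6.04 in CD4 cells. In Cd3-negative NK cells Zeb2 stood at 0.484 times, Prdm1 at 0.311 and Crtam at 0.486. In Cd3-positive NK-receptor cells Cd226 was at 0.459 and Tox at 0.414 times. CD4 cells had Tox at 0.407, Zeb2 at 0.492, Slamf6 at 0.479, Sh2d1a at 0.489 and Crtam at 0.254 times. CD8 cells had Klrb1f at 0.368 and Syk at 0.214 times, and Syk at 2.41 times from IL-10/2-Trikine to the combination, at 1.15 to 5.37 CPM throughout. The abundant genes of the lists moved less, with Id2 at 0.594 to 0.675 times and Ets1 at 0.597 to 0.759 times in the 4 classes, and Cd247 and Lat at 0.598 to 0.968 times. Slamf7 was at 0.736 to 1.004 times, Klrc2, the gene of the activating NKG2C, at 0.821 to 1.23 times and Havcr2 at 0.850 to 1.46 times.

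Genes with the most similar pattern were sought over the 12 profiles, 4 classes in 3 libraries, by the Pearson correlation of log2(CPM + 10), as a description since profiles share libraries. Ncr1 and Tyrobp followed each other at 0.998 and Klrb1c followed Ncr1 at 0.991. Outside the set, Ncr1 was most like Sulf2, Klra4 and Sh2d1b1 (0.994 to 0.996) and Klrb1c most like Klra9, Clnk and Emid1 (0.993 to 0.997). Klra4, Sh2d1b1 and Klra9 are among the 14 genes used to choose the NK-receptor sub-clusters, so their higher level there than in CD8 and CD4 cells is not independent of that choice. Tyrobp was nearest to Sulf2, Sh2d1b1 and ENSMUSG00000121360 (0.994 to 0.996), and Klrb1b to Klrb1a, Apobr and Tnfsf12 (0.992). Klre1 stood between the groups, with Lat2, Klrc3 and Ctla2b nearest (0.978 to 0.992). Klrd1 was most like Tm6sf1, 4930486L24Rik and Me2 (0.954 to 0.962), Klrk1 like Klrc2, Me2 and Soat2 (0.954 to 0.971) and Klrc1 like Cdc14b, Serp2 and Smim24 (0.868 to 0.898). Klrc1 and Ncr1 had a correlation of 0.0404.

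Ligand genes of the receptors were read in the same libraries, beside empty droplets. H2-T23, which encodes the Qa-1 molecule bound by CD94 with NKG2A, was at 350, 330 and 371 CPM in macrophage-like cells and at 179, 203 and 197 CPM in KP1 tumor cell-like cells that came through the sort, against 282, 179 and 250.1 CPM in empty droplets. Clec2d, the gene of the ligand of the Klrb1b receptor, was at 167, 158 and 228 CPM in macrophage-like cells and at 26.3, 12.01 and 20.5 CPM in KP1 tumor cell-like cells, where the 165, 78.0 and 140.3 CPM of empty droplets were higher. Of the NKG2D ligands, Ulbp1 was at 27.6, 20.4 and 25.8 CPM in KP1 tumor cell-like cells, and at 11.3, 33.1 and 29.6 CPM in Cd3-negative NK cells, which the 30.1, 31.5 and 29.5 CPM of empty droplets matched or exceeded except for NK cells of the IL-10/2-Trikine and combination libraries, so no presence is read from it. Raet1e and H60b were lower in tumor cell-like than in lymphoid cells. Raet1e stood at 4.26, 1.001 and 4.39 CPM in the former and at 31.2, 22.4 and 37.5 CPM in Cd3-negative NK cells. For H60b these levels were 3.24, 2.20 and 4.53 CPM against 37.97, 29.7 and 49.3 CPM. Empty droplets held 15.6, 22.2 and 16.1 CPM of Raet1e and 14.8, 27.5 and 24.6 CPM of H60b. Raet1d and H60c did not exceed 0.696 and 1.28 CPM in any class.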

How the data were processed

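Live CD45+ cells of 3 tumor samples were profiled with droplet-based 3′ single-cell RNA sequencing. The deposited matrices hold the UMI counts per gene and barcode that the authors obtained with Cell Ranger. The matrix headers name version 8.0.0 and the submitters' processing notes name mm10, while the study's methods name another version and build, so no coordinates were taken from the files. The genes and lists described were chosen with earlier results of these data known.

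Cells were required to show 200 genes or more, with mitochondrial UMIs not above 20%. Cells were clustered in scanpy 1.11.5 (2000 variable genes, 30 principal components, 20 neighbours, Leiden resolution 1), and T and NK clusters were clustered again. The 8 genes, Hcst and all other Klrb, Klrc, Klrd, Klre, Klri and Klrk genes were left out of clustering and naming. Clusters were named from fixed markers, with an allowance for T cell subset markers that was set after the clusters were seen. Scrublet called 12.5% of cells doublets in the mono-IL-10 library and none in the other 2, so its calls were not used and doublets were kept.

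UMIs were summed per class and library and given as CPM with exact Poisson 95% intervals. Shares of cells carry Clopper-Pearson intervals, and ratios of CPM an exact conditional binomial interval, for genes with at least 20 UMIs in a pair. With 1 library per group no test was run. Intervals cover counting error only. All 8 genes are named in every class. Of the related genes those past 2-fold with at least 100 UMIs in the pair and the 3 most abundant per list are named, and for each gene the 3 most similar by the Pearson correlation. TMM factors came from edgeR 4.0.16. The code was tested on simulated counts. Alternatives that removed high doublet scores, shared barcodes or a shallow sub-cluster, or took off background, were added after the data were seen. Columns of other kinds were not used.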

Additional observations from a re-analysis of the deposited data

Results flagged for a closer look

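In several genes the ratio between libraries lay above 1 in one class and below 1 in another, with intervals on opposite sides. None of these differences between classes was tested, since each group is 1 library. From mono-IL-10 to IL-10/2-Trikine, the ratio of Klrk1 in CD8 cells was 2.12 times that in Cd3-negative NK cells. The ratio of Klre1 in CD8 cells was 2.04 times that in CD4 cells, and for Klrc1 the same quotient was 1.299. The CD4 ratio of Klrc1 reached 1.10 over the alternatives and so did not stay below 1. The ratio of Klrb1c in CD8 cells was 1.80 times that in Cd3-negative NK cells, and that of Ncr1 in CD4 cells 3.14 times, both resting on T cell levels at background.

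From IL-10/2-Trikine to the combination, the ratio in CD4 cells was 1.62 times that in CD8 cells for Klrk1 and 1.85 times for Klre1. The quotients of Klre1 with CD4 cells rest on an IL-10/2-Trikine level close to that of macrophage-like cells and are not read as differences in expression. For Klrc1 the CD4 ratio was 1.84 times that of Cd3-positive NK-receptor cells, and for Klrd1 1.69 times that of Cd3-negative NK cells. The ratio of Klrb1c in Cd3-negative NK cells was 1.70 times that in CD4 cells, which rests on CD4 levels at background and on an NK ratio that ran from 0.950 to 1.15 over the alternatives.

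Outside the lymphoid classes, Klrb1b stood at 204 CPM or more in macrophage-like cells of every library. Tyrobp reached at least 1322 CPM in macrophage-like, 1423 CPM in neutrophil-like and 685 CPM in dendritic cell-like cells.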

How the results depend on the processing

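No paired analysis was possible because each group is 1 library. Of 64 ratios between libraries, the direction was the same in 54 under TMM factors, 58 under median-of-ratios factors, 63 with at least 500 detected genes, 56 at sub-cluster resolution 2, 51 without cells with a Mki67 UMI, 60 without cells with a C1qa, C1qb, C1qc or Lyz2 UMI, and 51 when the mean over cells of each cell's CPM was used. With macrophage-like background taken off it was the same in 28 of 32, by CPM and by UMIs per cell alike. The steps of Ncr1, Klrb1b and Tyrobp between the NK-receptor classes moved most with the class definition. The number of the 8 genes past 2-fold changed by over 1.5 times in these cases. In Cd3-positive NK-receptor cells, IL-10/2-Trikine over mono-IL-10, it was 3 when the class was set from each cell's own Cd3 UMIs and 0 otherwise. In CD8 cells of the same comparison it was 2 without Mki67 cells, 1 without the highest Scrublet scores and 1 by the mean over cells, against 0. In CD8 cells, combination over IL-10/2-Trikine, it was 0 under TMM, median-of-ratios, resolution 2, without Mki67 cells and by the mean over cells, against 1. In CD4 cells, IL-10/2-Trikine over mono-IL-10, it was 1 without Mki67 cells and 1 without cells with macrophage UMIs, against 2. For CD8 over CD4 in the combination library it was 2 without Mki67 cells and 2 by the mean over cells, against 0. Changes of 1 gene occurred in 4 more comparisons. For Cd3-negative NK over Cd3-positive NK-receptor cells (mono-IL-10) the count was 4 against 5 with classes from each cell's own Cd3 UMIs. For Cd3-positive NK-receptor over CD8 cells (mono-IL-10) it was 5 against 6 under TMM and median-of-ratios factors. For CD8 over CD4 cells it was 3 or 5 against 4 (mono-IL-10) and 5 against 6 (IL-10/2-Trikine). Background was taken off 4 genes only. Of these, in CD4 cells, 4 by CPM and 3 by UMIs per cell passed 2-fold from IL-10/2-Trikine to the combination, and 1 and 2 from mono-IL-10 to IL-10/2-Trikine, against 0 in both. For CD8 over CD4 in the combination 2 passed by CPM, against 0. The cause of these changes was not tested. Removing called doublets was not run, since the calls failed in 2 libraries. Levels under 10 CPM rest on few UMIs and are limited by depth.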

Other observations

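Among Cd3-negative NK cells, a shallow sub-cluster led by Lrmda, Slc24a3 and Eya1, with 194 cells in the IL-10/2-Trikine and 345 in the combination library, had Tyrobp at 44.9 and 195 CPM, from 5 and 57 UMIs. The other sub-cluster of the class stood at 1569.8 and 1667 CPM in these libraries. Klrk1 was less far apart, at 467 and 598 CPM in the shallow sub-cluster and 751 and 759.9 CPM in the other. The median depth of the shallow sub-cluster was 713.5 UMIs per cell.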
